A study of Arabidopsis thaliana with 4 samples.

Results

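The transcripts described here come from genes carried by the mitochondrial genome of Arabidopsis thaliana. Their probe sets were those that the platform annotation paired with exactly 1 gene whose lower-case symbol begins with nad, cox, cob, ccb, ccm, matR or orf, or with atp and a digit, with nuclear and plastid genes left out. This gave 23 probe sets of 16 genes, among 22746 probe sets other than controls, of which 13513 were paired with a single gene. The 23 were 15 probe sets of 8 nad genes, 2 of cox genes, 4 of cytochrome c maturation genes, 1 of matR and 1 of orfX. No probe set of cob or of an atp gene was paired with a single gene, so cytochrome b and the ATP synthase subunits of the mitochondrial genome are not described by name.

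The study compared seeds kept for 96 h in darkness at 4 °C with seeds kept for 96 h in darkness at 22 °C. All seeds were of Ler-0, the Landsberg erecta accession (stock NW20), and total RNA from each of 4 samples was labelled with biotin for 1 array, giving 2 arrays at 4 °C and 2 at 22 °C. The replicates carry the letters A and B. The labels call the stage dry seeds for both temperatures, and nothing in them says that A and B were separate seed lots, so the p-values reflect no more than the spread of these 4 samples, and that spread may be technical.

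Plant mitochondria keep a small genome that encodes part of the respiratory chain, while the other subunits are made from nuclear genes and imported. The nad genes encode subunits of NADH dehydrogenase (complex I), cob encodes cytochrome b of complex III, the cox genes encode subunits of cytochrome c oxidase (complex IV), and the ccm genes (older symbols ccb) encode parts of the machinery that attaches haem to cytochrome c. Many of these transcripts are edited and spliced, and several nad transcripts are joined in trans from separate precursors. In seeds the mitochondria of the dry embryo are poorly differentiated and mature after water uptake. Unlike cytosolic mRNA, plant mitochondrial RNA carries no stable poly(A) tail, because added tails mark it for decay. The primer used to copy the RNA is not given in the sources used here.

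Signals below are MAS5 signals in arbitrary units, scaled so that the 2% trimmed mean of each array was 500. A probe set entered the test if its mean scaled signal over the 4 arrays was at least 64, which 15847 probe sets and 21 of the 23 mitochondrial ones did. Differences are on log2(signal + 32), so that those of low signals are understated. Precision is limited by the number of arrays. The arrays at 22 °C differed more from each other than those at 4 °C. The SD of the log2 difference B minus A was 0.646 at 4 °C and 1.1 at 22 °C over all kept probe sets. The 18 hybridisation control probe sets, of E. coli bio and phage P1 cre, were all lower on B than on A at both temperatures. Their median difference was -1.34 at 4 °C and -1.60 at 22 °C, on log2 of the scaled signal without the added 32. Of 9 embryo and storage markers only the oleosin gene OLEO3 had a single-gene probe set, with signals of 348 and 658 at 4 °C and 1305 and 1838 at 22 °C, and none of 4 endosperm markers had one. The seed coat marker DFR had 86.2 and 74.4 at 4 °C and 78.8 and 72.5 at 22 °C. Another seed coat marker, BAN, had 18.5 and 24.4 at 4 °C and 8.71 and 4.50 at 22 °C, and did not pass the filter. LHCB4.1, a light-harvesting protein gene used as a seedling marker, had 289.8 and 215 at 4 °C, against 3717 and 3835 at 22 °C (limma adjusted p = 0.0279). The LHCB4.1 call was lost with no filter (adjusted p = 0.0551) and on leaving out array A (0.150) or array B (0.167) of 4 °C. The part of these cell types in the results was not tested. In whole seeds, fewer cells of a type and less RNA per cell cannot be told apart.

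The comparison of temperatures asks which transcripts differ between chilling and warm incubation in the dark. None of the 21 mitochondrial probe sets tested passed an adjusted p of 0.05 in limma, while 5.05% of all probe sets did (801, of which 430 were higher and 371 lower at 4 °C). Scaling the arrays to equal medians gave 1151 higher and 645 lower over all probe sets and again none of the mitochondrial ones. At an unadjusted p of 0.05, 3 of the 21 passed, against 25.6% of all probe sets, and the smallest adjusted p was 0.0922. The log2 fold changes (4 °C minus 22 °C) ran from -2.09 to 0.56 with a median of -0.341, against a median of -0.125 over all probe sets tested. The median over all probe sets was 0.0447 after quantile normalization and 0.213 with equal medians, and the fold changes are to be read relative to that shift. Of the 21, 16 had a fold change below 0 and 5 above, and over all probe sets 55.3% were below 0. At 14 of the 21 the fold change was smaller in size than its own standard error.

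**Figure D1:**
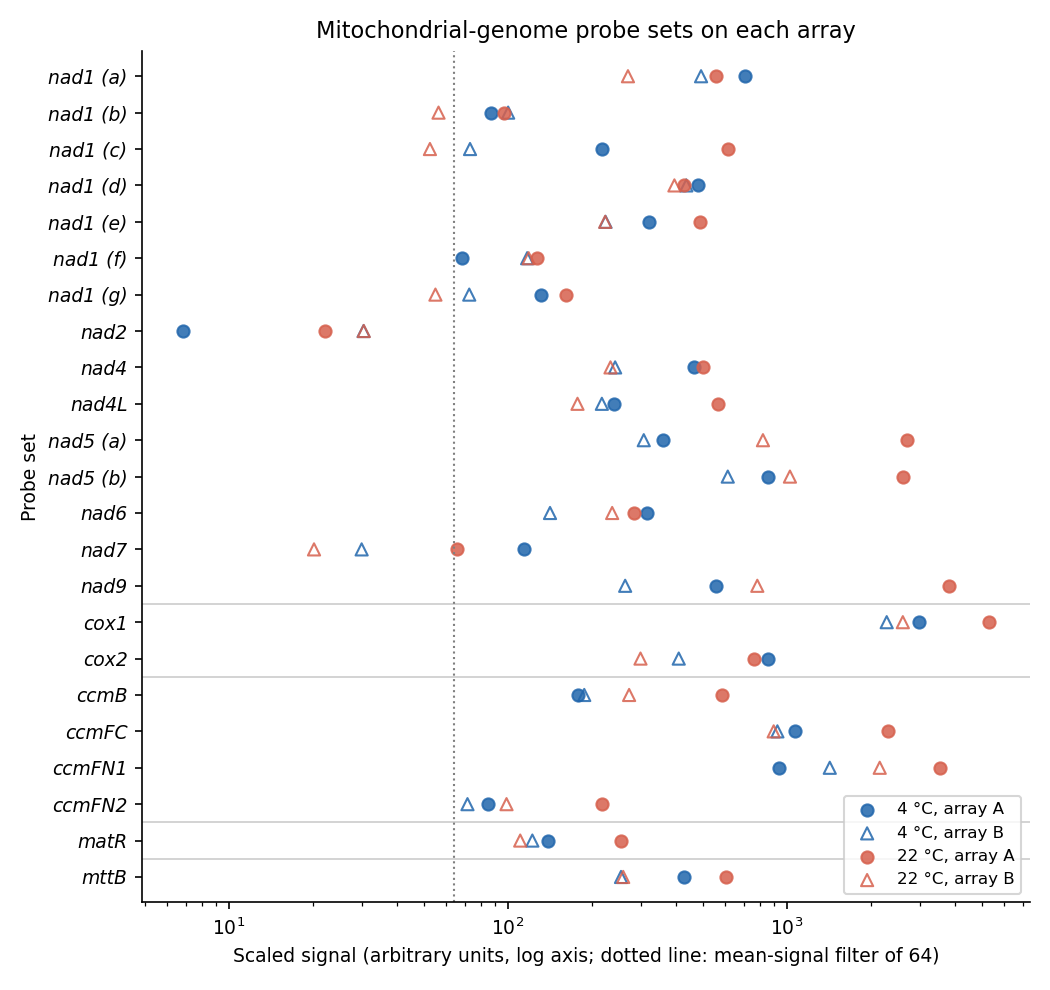
Scaled signal of each of the 23 mitochondrial-genome probe sets (rows, with lower-case letters for probe sets of the same gene in order of their IDs) on the 4 arrays, on a log axis in arbitrary units. Blue symbols are the 4 °C arrays and red ones the 22 °C arrays, filled circles array A and open triangles array B, and each symbol is 1 array. The 22 °C array A holds the highest signal at 16 of the 21 probe sets that passed the filter on mean signal (dotted line at 64).

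Among the complex I genes the lowest fold changes were those of nad9 and nad5. The nad9 product is a subunit of the arm that reaches into the matrix, where NADH is oxidised. Its probe set (244943_at) had signals of 556 and 263 at 4 °C (A, then B), against 3811 and 782 at 22 °C. Both 4 °C signals lay below both 22 °C signals, but the 22 °C signals were themselves 4.87-fold apart. This gave -2.09 ± 0.771 as the log2 fold change with its SE (adjusted p = 0.144 in limma). Leaving out 22 °C A gave -0.967, and leaving out 22 °C B gave -3.21.

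The nad5 product is a proton-pumping subunit of the membrane arm, and its transcript is spliced in trans. One nad5 probe set (257337_at, a in the plots) had 359 and 307 at 4 °C (A, then B), against 2695 and 819.6 at 22 °C. The other (257338_s_at, b) had 857 and 613 at 4 °C, against 2595 and 1024 at 22 °C. In both probe sets the temperatures did not overlap and 22 °C A was the highest array. On the log2 scale the differences were -2.07 ± 0.620 and -1.14 ± 0.573 (SE; adjusted p = 0.0922 and 0.263 in limma). For the first, leaving out 22 °C A gave -1.23, and leaving out 22 °C B gave -2.91. For the second the same steps gave -0.48 and then -1.79.

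The gene nad1, which encodes another membrane-arm subunit and is also spliced in trans, was measured by 7 probe sets that share the gene and are not independent. Their log2 fold changes ran from -0.53 to 0.56 with a median of 0.0116, and limma adjusted p-values were 0.542 or higher. Probe set 257321_at (a) had 706 and 492 at 4 °C (A, then B), against 559 and 269 at 22 °C, and the highest fold change, 0.56 ± 0.515 (SE). Probe set 257324_at (d) had 479 and 436 at 4 °C, against 426 and 395 at 22 °C. It was the only mitochondrial probe set of the 21 with both 4 °C arrays above both 22 °C arrays, by 0.14 on the log2 scale, whereas over all probe sets 25.7% were so. Probe set 257323_at (c) had 216 and 73.1 at 4 °C, against 612 and 52.5 at 22 °C. Its 22 °C signals were 11.6-fold apart, the widest gap between the 22 °C replicates among the members. Its log2 fold change of -0.53 turned to 0.935 without 22 °C A and to 0.0908 without 4 °C B, and without 22 °C B it was -1.99.

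In the other nad1 probe sets the temperatures overlapped or nearly met. Probe set 257325_at (e) had 321 and 224 at 4 °C, against 486 and 223 at 22 °C, so that both B arrays had nearly the same signal. Probe set 257327_at (f) had 68.3 and 117 at 4 °C, against 127 and 119 at 22 °C, and its 4 °C arrays lay below its 22 °C arrays only narrowly. Probe set 257329_at (g) had 131 and 72.7 at 4 °C, against 161 and 55.0 at 22 °C, and probe set 257322_at (b) had 86.8 and 100.2, against 96.4 and 56.4. Probe sets of the same gene thus gave fold changes of both signs, 3 below 0 and 4 above.

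The remaining complex I genes encode membrane-arm subunits, except nad7, whose product sits in the matrix arm. The nad4 probe set had 463 and 242 at 4 °C (A, then B), against 499 and 233 at 22 °C, or -0.03 ± 0.541 on the log2 scale (SE), and its signals differed by letter rather than by temperature. The nad4L probe set had 240.1 and 217 at 4 °C, against 565 and 177 at 22 °C, with 22 °C A standing above the other 3 arrays. The nad6 probe set had 316 and 141 at 4 °C, against 282 and 236 at 22 °C. With nad1 d and nad1 f it was 1 of the 3 tested members whose replicates differed more at 4 °C than at 22 °C. The probe sets of nad2 and nad7 did not pass the filter. For nad2 the signals were 6.82 and 30.4 at 4 °C and 22.1 and 30.4 at 22 °C, and for nad7 they were 114 and 29.9 at 4 °C and 65.7 and 20.2 at 22 °C.

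Of the cytochrome c oxidase genes, cox1 encodes the subunit where oxygen is reduced and cox2 the subunit that takes electrons from cytochrome c. The cox1 probe set had 2962 and 2275 at 4 °C (A, then B), against 5309 and 2599 at 22 °C. Its 4 °C mean was 2618 ± 485 and its 22 °C mean 3954 ± 1916 (SD, n = 2 arrays), with -0.51 ± 0.514 on the log2 scale (SE; adjusted p = 0.579 in limma). Set against 22 °C B alone, the 4 °C mean differed by -0.0015 on the log2 scale, and against 22 °C A alone by -1.02. The cox2 probe set had 852 and 409 at 4 °C, against 763 and 298 at 22 °C, so that both A arrays were high and both B arrays low (0.29 on the log2 scale, adjusted p = 0.814). Leaving out 22 °C B gave -0.348, and leaving out 4 °C A gave -0.216.

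All 4 cytochrome c maturation genes had fold changes below 0, with a median of -0.864, and none passed the test. In 3 of the 4 both 4 °C arrays lay below both 22 °C arrays, against 31.4% of all probe sets. CcmB is a membrane subunit of the transporter of this system, and in Arabidopsis the haem lyase CcmF is split over ccmFN1, ccmFN2 and ccmFC. The ccmFN1 probe set (annotated ccb382) had 933 and 1423 at 4 °C (A, then B), against 3521 and 2148 at 22 °C. Its 4 °C mean was 1178 ± 346 and its 22 °C mean 2834 ± 971 (SD, n = 2 arrays), which gave -1.23 ± 0.503 on the log2 scale (SE; adjusted p = 0.177 in limma). Its 4 °C signal was higher on B than on A. The ccmB probe set (annotated ccb206) had 178 and 188 at 4 °C, against 587 and 272 at 22 °C, or -1.01 ± 0.496 on the log2 scale (adjusted p = 0.249). Both 4 °C signals were close together, and most of the spread lay at 22 °C.

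The ccmFN2 probe set (annotated ccb203) had 85.1 and 71.6 at 4 °C, against 218 and 98.8 at 22 °C, with a log2 fold change of -0.71. The ccmFC probe set (annotated ccb452) had 1068 and 923 at 4 °C, against 2303 and 895 at 22 °C, with a log2 fold change of -0.52, and its 22 °C B signal was the lowest of the 4. Without 22 °C B, ccmFN1 was at -1.58 and ccmB at -1.53. Without 22 °C A they were -0.88 and -0.501, and ccmFC had 0.144.

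The last members were matR, a maturase gene that lies within an intron of nad1, and orfX, now named mttB, which encodes a relative of the bacterial TatC protein translocase. The matR probe set had 139 and 122 at 4 °C (A, then B), against 254 and 111 at 22 °C, and the mttB probe set had 426 and 254, against 606 and 259. In both, 22 °C A stood above the other 3 arrays. On the log2 scale they differed by -0.31 ± 0.510 and -0.25 ± 0.543 (SE; adjusted p = 0.751 and 0.819 in limma). Without 22 °C A they were 0.189 and 0.317, and mttB was also above 0 without 4 °C B (0.0893).

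**Figure D2:**
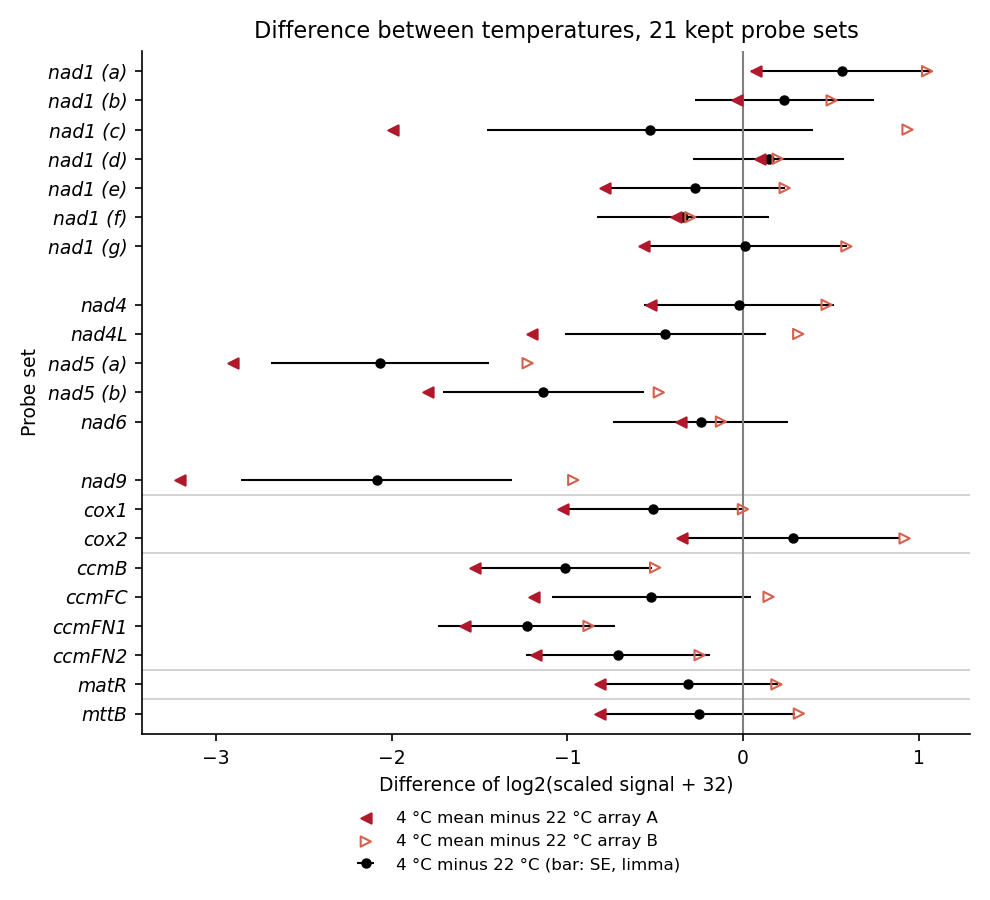
Difference of log2(scaled signal + 32) between temperatures for the 21 mitochondrial-genome probe sets tested. Black points are 4 °C minus 22 °C with the limma standard error, and triangles give the mean of the 4 °C arrays minus each 22 °C array alone, filled for array A and open for array B. The points run from -2.09 to 0.56, and at 10 probe sets the triangles lie on opposite sides of 0.

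Over the 21 probe sets, both 4 °C arrays lay below both 22 °C arrays at 7, or 33.3%, against 31.4% over all probe sets, so the share was near the background. The 7 were nad9, both probe sets of nad5, nad1 f, ccmB, ccmFN1 and ccmFN2. They lay above at 1, and the arrays overlapped at 13. The mean of the 4 °C arrays was below 22 °C A at 19 of the 21, with a median difference of -0.817, and below 22 °C B at 9 of the 21, with a median difference of 0.189. Over all probe sets those medians were -0.0858 and -0.109. The difference from 4 °C therefore had opposite signs for the 22 °C arrays at 10 of the 21, against 27.1% of all probe sets. In a fit without 1 array, a single array stood for its temperature and was assumed to vary like the pair at the other. Leaving out 22 °C B alone gave 6 calls among the members, all lower at 4 °C, where 19.4% of all probe sets passed. The 6 were nad9, both nad5 probe sets, nad1 c, ccmB and ccmFN1. Leaving out any 1 of the other 3 arrays gave none, with 26.1% of all probe sets passing without 22 °C A and 1 probe set in all without either 4 °C array.

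The arrays at 22 °C were then set against each other, B minus A, with 1 array on each side and no test. All 21 probe sets were lower on B than on A, by a median log2 difference of -1.02, whereas 52.0% of all probe sets were lower, with a median of -0.0522. The differences ran from -2.93 for nad1 c to -0.0811 for nad1 f. On log2(signal + 32), 14 of the 21 were at least 2-fold lower on B, against 12.5% of all probe sets, and none was 2-fold higher. On plain signals 16 of the 21 were, with nad1 a and ccmFN2 added, against 15.4% of all probe sets. The 22 °C array A held the highest of the 4 signals at 16 of the 21, against 28.2% of all probe sets.

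By role, all 13 complex I probe sets, both cox probe sets, all 4 of cytochrome c maturation, matR and mttB were lower on 22 °C B. Leaving out the 7 of nad1, the other 14 had a median of -1.08. The nad9 probe set had 782 on B and 3811 on A, with a log2 difference of -2.24. The nad5 probe set a had 819.6 on B and 2695 on A (-1.68), the nad4L probe set 177 on B and 565 on A (-1.51), and ccmFC 895 on B and 2303 on A (-1.33). The tested members with the smallest differences were nad1 f, with 119 on B and 127 on A, nad1 d, with 395 and 426, and nad6, with 236 and 282. The difference between the 22 °C replicates was larger in size than the difference between temperatures at 16 of the 21, against 49.3% of all probe sets.

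At 4 °C the members also tended to be lower on B, by less. Array B was below array A for 17 of the 21, with a median log2 difference of -0.376, against 46.7% of all probe sets and a median of 0.0473. At least 2-fold lower on log2(signal + 32) were 3 of the 21, against 6.20% of all probe sets, namely nad1 c, nad6 and cox2. On plain signals nad9 was added, giving 4 of the 21, against 9.19% of all probe sets. Lower on B at both temperatures were 17 of the 21, against 27.0% of all probe sets. The 4 that were higher on 4 °C B were nad1 b, nad1 f, ccmB and ccmFN1. At 18 of the 21 the difference was larger in size at 22 °C than at 4 °C. The bio and cre hybridisation controls were lower on B at both temperatures as well, with the values given above, which are without the added 32. The part that this plays in the members' difference was not tested.

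**Figure D3:**
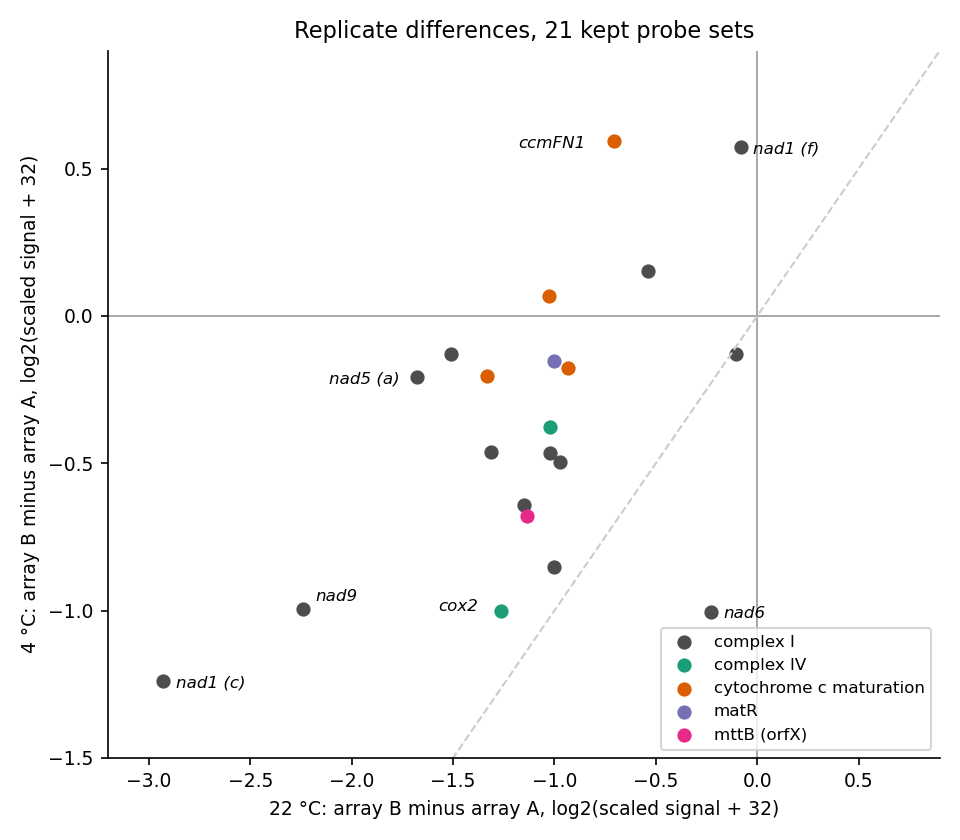
Difference between replicates, array B minus array A, on log2(scaled signal + 32), at 22 °C (horizontal) and at 4 °C (vertical) for the 21 mitochondrial-genome probe sets tested, with 1 point per probe set coloured by role. Solid lines mark 0 and the dashed line marks equal differences. All 21 points lie left of 0 and 17 lie below 0, and nad1 c and nad9 lie farthest to the left.

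A further 12 probe sets were paired with several genes of which at least 1 was mitochondrial. In 11 of them another gene lay on chromosome 2, which in the Columbia accession carries a large insertion of mitochondrial DNA. They are not named, and their signal cannot be assigned to 1 gene. Of these 12, 1 was lower at 4 °C in the limma test and none was higher, where 5.05% of all probe sets passed. Their median log2 fold change was -1.02, and leaving out 22 °C A gave -0.114, leaving out 22 °C B -2.04. At 22 °C array B was below array A for all 12, with a median of -1.70, and at 4 °C for 10. The IDs of all 12 end in _s_at, as do those of 5 members, nad5 b, nad6, ccmFC, matR and mttB. The annotation pairs each of these 5 with 1 gene, and whether they also read other sequences was not tested. All 5 were lower on B at both temperatures, against 27.0% of all probe sets.

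The plastid genome, the other organelle genome, had 69 probe sets. At 22 °C array B was below array A for 30 of them, with a median of 0.0817, and the difference from the mitochondrial set was not tested. Between temperatures their median log2 fold change was -1.02. Both 4 °C arrays lay below both 22 °C arrays at 42 of the 69, or 60.9%, against 31.4% of all probe sets. Leaving out 22 °C A gave a median of -0.942, and leaving out 22 °C B gave -0.934. In the limma test 2 of the 69 passed, both lower at 4 °C, against 5.05% of all probe sets in either direction. They were psbE, with 667 and 913 at 4 °C against 4685 and 4706 at 22 °C (-2.54 on the log2 scale, adjusted p = 0.0363), and psbF, with 1468 and 1953 against 8991 and 6933 (-2.20, adjusted p = 0.0416). Both encode cytochrome subunits of photosystem II. Their calls were lost without either 4 °C array (adjusted p from 0.232 to 0.313), with no filter (0.0661 for psbE and 0.0756 for psbF) and with a pseudocount of 100 (0.0502 and 0.0557). The psbF call was also lost with equal medians (adjusted p = 0.0603).

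Nuclear genes for mitochondrial proteins were read from 9 lists of 78 loci, of which 30 were measured by a single-gene probe set and 27 passed the filter. Of these 27, 1 was higher at 4 °C in the limma test, none was lower and 26 did not pass, where 5.05% of all probe sets passed. Their median log2 fold change was 0.721, with 25 above 0 and 2 below. Without 22 °C A that median was 0.420, and without 22 °C B it was 0.980. Both 4 °C arrays lay above both 22 °C arrays at 15 of the 27, against 25.7% of all probe sets. At 22 °C array B was below array A for 7 of the 27, with a median difference of 0.645. The 7 included all 5 kept genes of the list for mitochondrial transcription and RNA processing, whose median difference was -0.746. The gene that was higher at 4 °C was AT5G14580, of the list for mitochondrial transcription and RNA processing. It had 1351 and 2279 at 4 °C against 372 and 113 at 22 °C. On the log2 scale this was 2.89 ± 0.611 (SE, limma adjusted p = 0.0443). The call of AT5G14580 was lost without either 4 °C array (adjusted p = 0.219 and 0.292), with no filter and with a pseudocount of 100. The 5 kept genes of that list had a median of 1.55.

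By list, the 6 nuclear genes of complex III and cytochrome c had a median of 0.939, and the one with the largest value was CYTC-1, a cytochrome c gene, with 11599 and 7447 at 4 °C against 2211 and 4249 at 22 °C (1.59 on the log2 scale, adjusted p = 0.103 in limma). CYTC-1 passed with equal medians (adjusted p = 0.0416) and without 22 °C B (0.0132). The 3 kept complex II genes had a median of 1.06, led by SDH2-1, the iron-sulfur subunit of succinate dehydrogenase, with 2214 and 2569 at 4 °C against 566 and 1961 at 22 °C (1.15, adjusted p = 0.306). The 4 nuclear genes of complex I had a median of 0.451, with AT2G20360 at 0.68. The 4 of complex IV had a median of 0.57, with AT1G80230 at 1.15. AT1G80230 was at 0.485 without 22 °C A and at 1.81 without 22 °C B. Of 8 listed nuclear genes of ATP synthase only AT5G47030 had a single-gene probe set. Its signals were 4864 and 5043 at 4 °C against 4056 and 5609.8 at 22 °C. Of 3 listed nuclear genes of cytochrome c maturation only CCMH had a single-gene probe set. CCMH had 235 and 275 at 4 °C against 113 and 165 at 22 °C (0.76, adjusted p = 0.333 in limma). The 4 mitochondrial genes of that process had values below 0. From the list of alternative oxidase and alternative dehydrogenases the 3 kept genes were all dehydrogenases, NDB1, NDB2 and NDB3, with a median of 0.359 and NDB2 at 0.72, and no gene of the import and carrier list had a single-gene probe set. The difference between the nuclear lists and the mitochondrial genes was not tested.

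**Figure D4:**
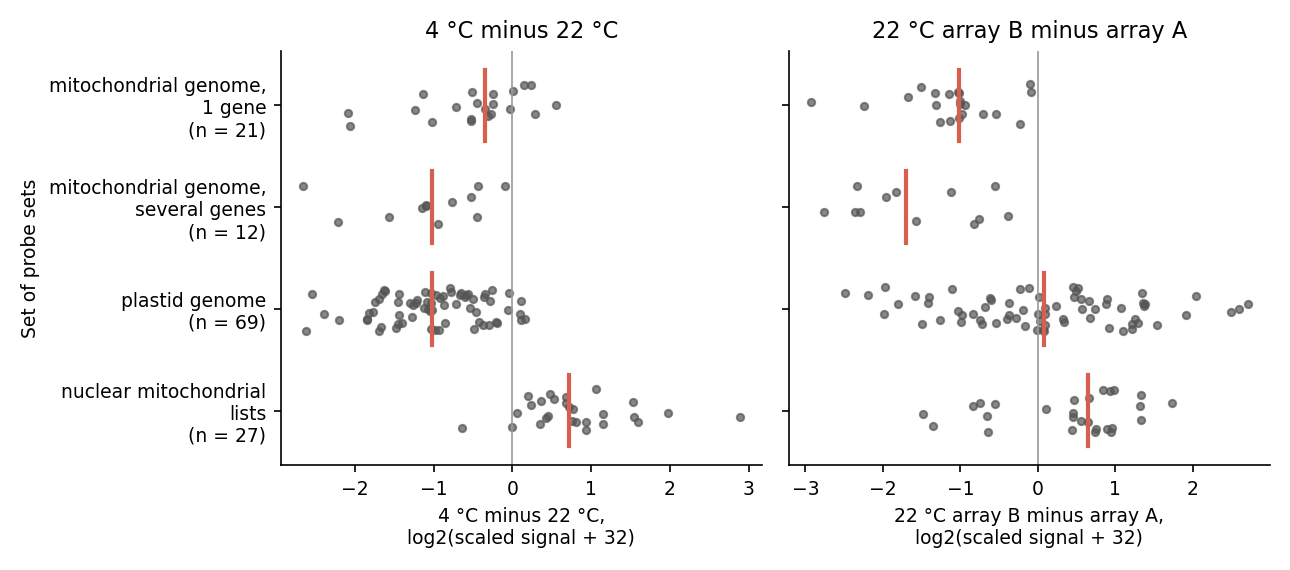
Log2 differences of the kept probe sets (1 point each, shifted vertically at random for visibility) with the median of each set as a red bar, for 4 °C minus 22 °C (left) and for 22 °C array B minus 22 °C array A (right). The 21 mitochondrial-genome probe sets paired with 1 gene have medians of -0.341 and -1.02, the 12 paired with several genes -1.02 and -1.70, the 69 plastid probe sets -1.02 and 0.0817, and the 27 nuclear genes of mitochondrial lists 0.721 and 0.645.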

How the data were processed

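Per the submitters' processing notes the authors made the deposited intensity values, 1 signal per probe set and array, with MAS5, whose version is not given in the sources used here. The values show a linear scale, no centring of probe sets, and a 2% trimmed mean of 100.0 on every array, with deposited medians of 27.1 and 28.0 at 4 °C and 31.4 and 40.8 at 22 °C. Detection calls, background handling and array or scan batches were not used here.

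Each array was multiplied to a trimmed mean of 500, 64 control probe sets were left out, and probe sets with a mean scaled signal of at least 64 were tested in limma 3.58.1 (R 4.3.3) as log2(signal + 32), using lmFit and eBayes with a variance trend, no covariate, and Benjamini-Hochberg adjustment over 15847 probe sets at 0.05. The fit was tested on simulated data. The mitochondrial gene IDs of the platform annotation are older than those of the RefSeq table (TAIR10.1), so all 23 probe sets were matched to it by symbol or synonym. In the annotation 503 probe sets had several genes and 8730 were not listed, and none of these is named.

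Every mitochondrial-genome probe set is named. From each of the other lists, the genes past the threshold are named, or else the 1 with the largest absolute value. The members and lists were chosen with earlier results of these data known. Alternatives are given in the closing section.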

Additional observations from a re-analysis of the deposited data

How the results depend on the processing

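The count over all probe sets, 801, was 226 with a pseudocount of 100, 2 with no filter, 1266 with a filter at 200, 1796 with equal medians, 2879 with the replicate block, and 1 to 4142 with 1 array left out. With no filter or without a 4 °C array so few probe sets passed that the count of 0 for the members says nothing about stability there. Among the mitochondrial probe sets 2 passed with the replicate letter as a block, nad9 and nad5 a, both lower at 4 °C (limma adjusted p = 0.0107 and 0.0117), where 18.2% of all probe sets passed. CYTC-1 and OLEO3 also passed with that block (0.0362 and 0.0346). No label states a pairing of the arrays by the letters A and B. Over all probe sets the B minus A differences at the 2 temperatures correlated with r = 0.209. Leaving out 1 array gave 0 to 6, the 6 without 22 °C B, where 22 °C A alone stood for its temperature and was assumed to vary like the 4 °C pair. The other planned settings gave 0. The members' median log2 fold change stayed between -0.483 and -0.0532 with all arrays, and with 1 left out ran from -0.817 to 0.189, above 0 only without 22 °C A. It was -0.478 with 1 probe set per gene. The -0.483 came from the deposited scale, where 11 members passed the filter, against 21 in the main setting. With a filter at 200 there were 16, so these medians are not over the same members. The median B minus A at 22 °C ran from -1.36 to -0.859. With all arrays, signs turned for nad1 e (0.0573, equal medians), nad1 g (-0.0102, pseudocount 100), nad4 (0.201 with quantile normalization, 0.310 with equal medians), nad6 (0.0212 and 0.0876 in those settings), mttB (0.0878, equal medians) and AT5G47030 (-0.165, quantile normalization). With 1 array left out, values that changed sign ran from -0.0354 to 0.503 for nad1 b, -1.99 to 0.935 for nad1 c, -0.785 to 0.236 for nad1 e, -0.564 to 0.587 for nad1 g, -0.527 to 0.475 for nad4, -1.20 to 0.313 for nad4L, -0.743 to 0.261 for nad6, -0.348 to 0.918 for cox2, -1.19 to 0.144 for ccmFC, -0.814 to 0.189 for matR, -0.817 to 0.317 for mttB and -0.179 to 0.286 for AT5G47030. The cause of these changes was not tested. The medians of the plastid, several-gene and nuclear sets kept their sign in every setting run on them, and these settings were chosen for them after seeing the data. With 2 arrays a temperature, groups are too small to single out a deviating array.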
